A study of Mus musculus with 6 samples.

Results

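The semaphorin, slit, netrin and ephrin guidance genes were followed in mouse small-cell lung cancer (SCLC) cells with and without active TAZ. The families were picked with earlier results of these data known, and within them a gene was taken by its symbol, whatever its value: semaphorins of classes 3 to 7, plexins, neuropilins, slits, Robo receptors, netrins and netrin-Gs, the netrin receptors of the UNC5 family and Dcc, Eph receptors and ephrins. This gave 71 genes of the 23361 symbols in the table, 37 of them ligands and 34 receptors. RNA was measured in 3 libraries of SMC-TAZ4SA and 3 libraries of SMC-Ctrl. SMC, the SCLC metastasizing cell, is a line of NCAM-high cells with little or no CD44, which the study isolated by FACS from lung tumours. The tumours arose after Cre adenovirus was given to mice whose Rb1 and Trp53 alleles Cre can delete. Their background was a mix of C57Bl/6, Balb-c and S129. By the genotyping in the paper, the sorted cells had lost both genes. SMC-TAZ4SA cells were infected with a virus for TAZ-4SA, a form of the co-activator TAZ that is always active. SMC-Ctrl cells received the empty vector, and both were selected with puromycin, so that they share the tumour alleles, the sort, the infection and the drug. The species of the TAZ-4SA construct was not given in the sources used here. Nothing there says that replicates came from separate cultures, and p-values then cover the spread between these libraries only, which may be technical. The data statement of the study lists the series as SMC against non-SMC, the CD44-high cells of the same tumours, and this difference from the titles and the design text is not resolved here.

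Guidance genes were first known from the growing axon, which is drawn or pushed away by proteins on other cells or in the matrix, and they also act in blood vessels, epithelia and migrating tumour cells. Semaphorins signal through plexins, and most class 3 semaphorins, which are secreted, need a neuropilin as co-receptor. Slits bind Robo receptors, and netrin-1 acts through Dcc, its relative neogenin and the UNC5 receptors. Ephrin-A ligands are held in the membrane by a lipid anchor and bind mainly EphA receptors, while ephrin-B ligands cross the membrane and bind mainly EphB receptors and Epha4, and both partners can signal into their own cell. TAZ has no DNA-binding domain and reaches promoters and enhancers through TEAD factors.

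Values are FPKM, fragments scaled to transcript length and to the mapped fragments of the library, so levels can be compared between genes. Wwtr1, the gene of TAZ, stood at 31.7, 36.0 and 35.8 FPKM in SMC-TAZ4SA and at 0.162, 0.105 and 0.162 FPKM in SMC-Ctrl. FPKM keeps no read number and the absolute depth is unknown, while low values gave a relative depth of 0.713 to 0.964 in SMC-TAZ4SA and 0.968 to 1.09 in SMC-Ctrl (SMC-Ctrl replicate 1 = 1). SMC-TAZ4SA replicate 1 stood apart by transcript length: against replicates 2 and 3, its median log2 ratio was 0.26 over the 2573 genes with the shortest transcripts (174 to 2273 bases) and −0.19 over the 2571 with the longest (4889 to 123179 bases). It was the lowest library of its group for 24 of the 41 guidance genes at 1 FPKM or more throughout that group, and without it 24 guidance genes were called higher and 27 lower, as with it. Among markers of small-cell neuroendocrine cells, Chga averaged 0.328 FPKM in SMC-TAZ4SA and 94.2 FPKM in SMC-Ctrl, Syp averaged 0.164 FPKM in SMC-TAZ4SA and 26.1 FPKM in SMC-Ctrl, and Ncam1, a gene of the sort, averaged 78.5 FPKM in SMC-TAZ4SA and 21.4 FPKM in SMC-Ctrl. Markers of other cells that use guidance genes moved too. Fibroblast markers summed to 322 to 372 FPKM in SMC-TAZ4SA and to 1.76 to 2.11 FPKM in SMC-Ctrl, with 3 of 7 higher. These were Col1a1 (276 FPKM in SMC-TAZ4SA and 0.0136 FPKM in SMC-Ctrl), Pdgfrb (67.1 and 0.0526 FPKM in SMC-TAZ4SA and SMC-Ctrl) and Thy1 (9.97 and 1.28 FPKM in SMC-TAZ4SA and SMC-Ctrl). The other 4 were under the filter, among them Dcn and Lum: Dcn averaged 0.0129 FPKM in SMC-TAZ4SA and 0.151 FPKM in SMC-Ctrl, and Lum averaged 0.00620 FPKM in SMC-TAZ4SA and was listed at 0 in SMC-Ctrl. Endothelial markers summed to 2.43 to 2.95 and 30.2 to 34.8 FPKM in SMC-TAZ4SA and SMC-Ctrl, with 1 of 8 higher (Kdr, 2.14 and 0.468 FPKM), 1 lower (Vwf, 0.0176 and 31.0 FPKM) and the others under the filter, Emcn and Cldn5 at 0 throughout. Leukocyte markers (7 of 8 in the table) summed to 3.68 to 4.51 and 0.947 to 1.20 FPKM in SMC-TAZ4SA and SMC-Ctrl, with 1 higher (Csf1r, which averaged 3.19 FPKM in SMC-TAZ4SA and was listed at 0 in SMC-Ctrl). Ptprc, found on nearly all leukocytes, averaged 0.0315 FPKM in SMC-TAZ4SA and 0.00164 FPKM in SMC-Ctrl. Neuron markers summed to 49.9 to 53.5 and 52.7 to 56.0 FPKM in SMC-TAZ4SA and SMC-Ctrl, but single genes moved in opposite directions. In SMC-TAZ4SA and SMC-Ctrl, 1 was higher (Tubb3, 34.4 and 4.35 FPKM) and 3 were lower (Syt1, 0.0529 and 23.3 FPKM, Gad1, 0.00315 and 2.58 FPKM, and Map2, 16.7 and 24.4 FPKM). The part of these markers in the results was not tested. In RNA from a whole culture, fewer cells of a type and less RNA per cell cannot be told apart.

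Testing was limited to genes with 1 FPKM or more in 3 or more of the 6 libraries, and a gene was called at an adjusted p under 0.05 by limma on log2(FPKM + 1). Fold changes are on that scale unless said otherwise and understate the change of low genes. Of the 71 guidance genes, 51 were tested, and 24 were higher and 27 lower in SMC-TAZ4SA. The whole table moved about as often, since 40.7% of the 12141 tested genes were called higher and 39.7% lower, so the number of guidance genes called is no result about them by itself. At least 2-fold changes were called for 22 guidance genes higher and 17 lower (43.1% and 33.3%), against 15.5% and 16.7% of all tested genes. Passing the filter through 1 group alone favours a large change, and 11 guidance genes passed only through SMC-TAZ4SA and 10 only through SMC-Ctrl. Among the 30 that reached 1 FPKM in both groups, 12 were at least 2-fold higher and 9 at least 2-fold lower (40.0% and 30.0%), against 10.4% and 11.5% of the 10216 such genes in the table. The median size of the log2 fold change was 1.55 in these 30 genes and 0.50 in the 10216. Because the families were picked with earlier results of these data known, these contrasts with the table are a description and not a test. The groups did not overlap for any of the 51 tested guidance genes, as for 82.4% of all tested genes. The 27 tested ligands held 12 higher and 15 lower genes, and the 24 tested receptors 12 of each. With every library scaled to the same total, the median log2 fold change of all genes was −0.18 in place of 0.02 and 3984 genes were higher and 5883 lower in place of 4939 and 4815, but the 24 higher and 27 lower guidance genes kept their counts and no guidance gene changed direction.

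**Figure D1:**
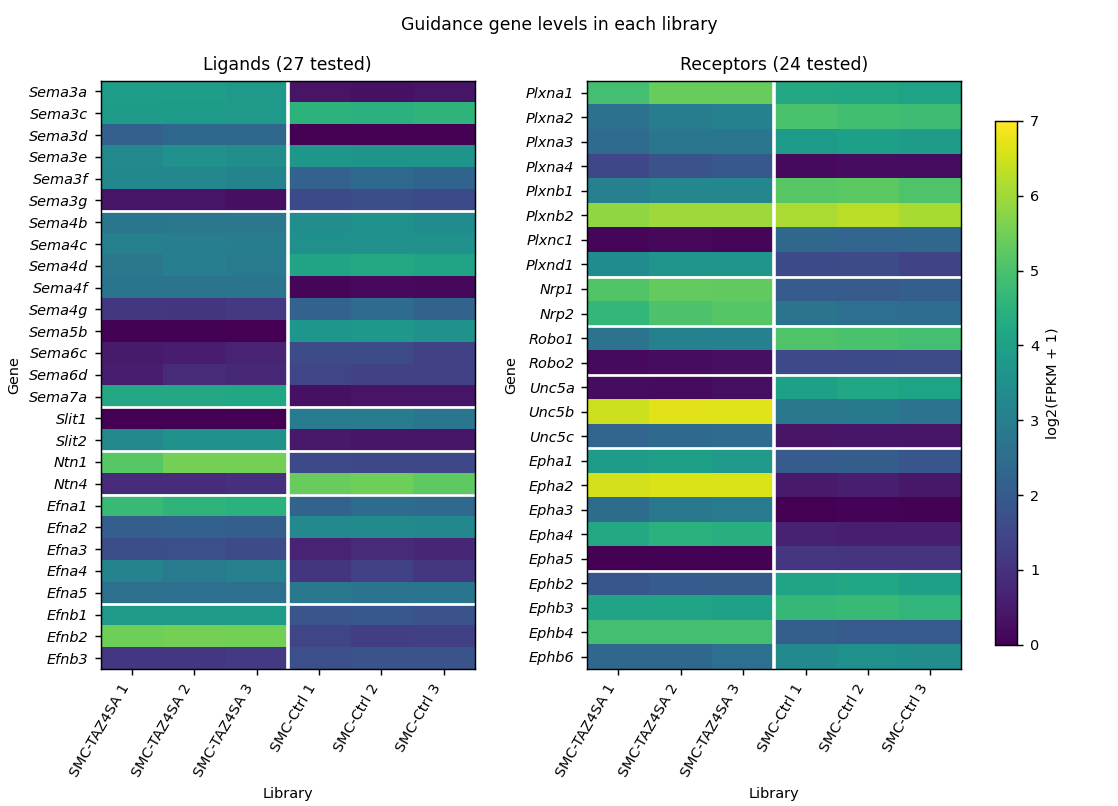
Level of the 27 tested ligands and 24 tested receptors in each library, as log2(FPKM + 1), with the SMC-TAZ4SA libraries left of the SMC-Ctrl libraries and white lines between families. Within most families bright and dark rows switch between the groups, as for Slit1 and Slit2 or Ntn1 and Ntn4.

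The largest changes on the log2(FPKM + 1) scale were spread over the families, and genes are ranked on that scale here. Among ligands, Efnb2, a transmembrane ephrin, rose most, to 42.5, 45.7 and 44.8 FPKM in SMC-TAZ4SA, against 1.73, 1.44 and 1.51 FPKM in SMC-Ctrl (log2 fold change 4.15, SE 0.07, adjusted p = 6.04e-10 by limma). The ligand that fell most was Ntn4, a netrin that binds laminin in basement membranes, with 0.812, 0.857 and 0.951 FPKM in SMC-TAZ4SA and 40.8, 42.8 and 37.2 FPKM in SMC-Ctrl (log2 fold change −4.46, SE 0.07, adjusted p = 5.72e-10 by limma). The receptor with the largest rise was Epha2, an Eph receptor found at high levels in many carcinomas. It stood at 92.4, 96.1 and 95.7 FPKM in SMC-TAZ4SA and at 0.420, 0.511 and 0.378 FPKM in SMC-Ctrl, with 217 as the ratio of the means (log2 fold change 6.06, SE 0.06, adjusted p = 1.22e-10 by limma). Unc5a, a netrin receptor and one of the dependence receptors, fell most among receptors, with 0.179, 0.158 and 0.187 FPKM in SMC-TAZ4SA and 14.7, 17.2 and 15.6 FPKM in SMC-Ctrl (log2 fold change −3.84, SE 0.07, adjusted p = 9.16e-10 by limma). The replicates of a group lay close together for all 4 genes, which were picked for the distance between the groups on that scale. The ratio of the means ranks low genes differently. By it, Slit1 (850-fold) and Sema5b (460-fold) fell more than Ntn4 (46.1-fold), and Epha5 (124-fold) fell more than Unc5a (90.8-fold). Sema7a (62.3-fold), Sema4f (49.3-fold), Sema3a (48.3-fold) and Slit2 (29.8-fold) rose more by it than Efnb2 (28.4-fold).

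The promoters of Efnb2, Ntn4, Epha2 and Unc5a are shown because these genes had the largest rise and fall among ligands and receptors on the log2(FPKM + 1) scale. Each is the 250 bases before the transcription start on the gene's strand, from RefSeq on GRCm38.p6, and capitals mark GGAATG or CATTCC, the core letters that TEAD factors bind. They lie at chr8:8661243-8661492 (minus strand) for Efnb2, chr10:93640799-93641048 (plus strand) for Ntn4, chr4:141300971-141301220 (plus strand) for Epha2 and chr13:54949161-54949410 (plus strand) for Unc5a.
Efnb2: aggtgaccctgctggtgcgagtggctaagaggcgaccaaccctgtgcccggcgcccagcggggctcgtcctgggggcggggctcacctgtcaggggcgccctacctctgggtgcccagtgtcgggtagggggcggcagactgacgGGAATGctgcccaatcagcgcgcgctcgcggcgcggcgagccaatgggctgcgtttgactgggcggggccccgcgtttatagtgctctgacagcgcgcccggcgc
Ntn4: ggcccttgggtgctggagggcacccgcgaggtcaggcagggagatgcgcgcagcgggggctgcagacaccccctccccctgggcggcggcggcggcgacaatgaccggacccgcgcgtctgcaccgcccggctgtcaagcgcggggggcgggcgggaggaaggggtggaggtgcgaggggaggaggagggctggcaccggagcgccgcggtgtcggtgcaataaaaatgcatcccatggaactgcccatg
Epha2: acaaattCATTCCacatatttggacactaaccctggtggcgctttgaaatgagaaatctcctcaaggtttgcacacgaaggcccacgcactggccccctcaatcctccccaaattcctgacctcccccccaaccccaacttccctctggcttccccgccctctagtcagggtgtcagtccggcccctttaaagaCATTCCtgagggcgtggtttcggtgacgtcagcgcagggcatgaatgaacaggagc
Unc5a: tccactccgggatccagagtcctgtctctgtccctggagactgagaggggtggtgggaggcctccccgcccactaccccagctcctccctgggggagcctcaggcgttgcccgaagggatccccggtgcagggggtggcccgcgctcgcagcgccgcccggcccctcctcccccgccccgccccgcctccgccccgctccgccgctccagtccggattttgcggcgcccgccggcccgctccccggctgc
The Efnb2 stretch holds GGAATG from 105 bases before the start, and the Epha2 stretch holds CATTCC from 243 and from 56 bases before it. The Ntn4 and Unc5a stretches hold neither. In the GENCODE M21 annotation the Ntn4 gene starts at 93640681, so its stretch lies inside that gene model. The bases before that start are not shown. The GC content of the 4 stretches is 72.0% for Efnb2, 73.2% for Ntn4, 55.6% for Epha2 and 76.8% for Unc5a. Windows of 300 bases, 250 before to 50 after a start, were found for 61 of the 71 guidance genes (77 windows, some genes having several starts) among 32851 windows in all. The TEAD letters, on either strand, were in 5 of the 22 windows of higher genes (22.7%; Efnb2, Epha1, Epha2, Epha3 and Plxnd1) and in 2 of the 34 windows of lower genes (5.88%; Plxnb1 and Robo2). They were in 14.7% of all windows. TGACTCA or TGAGTCA, the letters of AP-1, were in 0 of 22 windows of higher genes and 1 of 34 windows of lower genes (Sema4c), against 5.20% of all. Neither motif contains the other. Guidance windows were richer in GC than all windows (medians 64.0% and 52.7%). With so few windows these shares are a description, and a match of letters is not a bound site.

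Among class 3 semaphorins, which are secreted and act mostly on neuropilin and plexin-A complexes, 3 genes were higher and 3 lower, of 6 tested. Sema3a, the classical collapsing signal for growth cones, stood at 14.1, 13.9 and 12.8 FPKM in SMC-TAZ4SA and at 0.280, 0.249 and 0.317 FPKM in SMC-Ctrl (log2 fold change 3.51, SE 0.06, adjusted p = 8.79e-10 by limma), a 48.3-fold ratio of means. Sema3d had 3.39, 4.17 and 4.07 FPKM in SMC-TAZ4SA and stood at 0 in each SMC-Ctrl library, so no fold is given. Sema3g, a semaphorin of arteries, had 0.316, 0.326 and 0.222 FPKM in SMC-TAZ4SA, against 1.95, 2.23 and 1.96 FPKM in SMC-Ctrl (log2 fold change −1.24, 7.11-fold lower by the means). The high libraries were thus those of SMC-TAZ4SA for Sema3a and Sema3d, and those of SMC-Ctrl for Sema3g. The other 3 changed by less than 2-fold on the log2(FPKM + 1) scale. Sema3f, whose human counterpart lies in a region often lost in lung cancer, was higher (log2 fold change 0.94, 2.15-fold by the means). Sema3c (−0.70) and Sema3e (−0.21) were lower. The Sema3e call (adjusted p = 0.0243 by limma) was lost without SMC-TAZ4SA replicate 3 or any single SMC-Ctrl library (0.0503 to 0.0910). Of the summed FPKM of class 3 semaphorins, Sema3a held 26.6% to 28.7% in SMC-TAZ4SA and 0.639% to 0.791% in SMC-Ctrl, and Sema3c held 25.7% to 27.0% in SMC-TAZ4SA and 53.6% to 56.4% in SMC-Ctrl.

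Both neuropilins, the co-receptors of class 3 semaphorins and of VEGF, rose. Nrp1 stood at 33.5, 38.6 and 38.1 FPKM in SMC-TAZ4SA and at 3.14, 2.98 and 3.25 FPKM in SMC-Ctrl (log2 fold change 3.19, SE 0.07, adjusted p = 3.04e-09 by limma). Nrp2 stood at 24.0, 32.3 and 34.4 FPKM in SMC-TAZ4SA and at 5.43, 4.86 and 4.70 FPKM in SMC-Ctrl (log2 fold change 2.37, SE 0.13, adjusted p = 6.25e-07 by limma). Replicate 1 was lowest of the SMC-TAZ4SA libraries for both, and even it was above every SMC-Ctrl library. Summed over both genes the level was 67.0 ± 8.27 FPKM in SMC-TAZ4SA and 8.12 ± 0.391 FPKM in SMC-Ctrl (SD, n = 3 each).

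Plexins, the signalling receptors of all semaphorin classes, moved in both directions, with 3 higher and 5 lower of 8 tested. Their total as deposited was 129 ± 14.2 FPKM in SMC-TAZ4SA and 171 ± 8.19 FPKM in SMC-Ctrl (SD, n = 3 each). Plxna1, a main partner of neuropilin-1, had 28.8, 40.5 and 40.1 FPKM in SMC-TAZ4SA and 17.6, 17.4 and 15.7 FPKM in SMC-Ctrl (log2 fold change 1.05, SE 0.13, adjusted p = 1.09e-04 by limma). Plxna4, which takes part in Sema3a signalling in neurons, had 1.82, 2.49 and 2.79 FPKM in SMC-TAZ4SA, against 0.124, 0.175 and 0.179 FPKM in SMC-Ctrl (log2 fold change 1.53). Plxnd1, which Sema3e binds without a neuropilin, had 9.32, 11.6 and 11.5 FPKM in SMC-TAZ4SA and 1.95, 2.05 and 1.68 FPKM in SMC-Ctrl (log2 fold change 2.02, 5.70-fold by the means). The other plexin-A genes went the opposite way. Plxna2, a receptor of Sema6a, fell to 5.11, 6.87 and 7.37 FPKM in SMC-TAZ4SA, against 30.5, 28.4 and 27.2 FPKM in SMC-Ctrl (log2 fold change −2.01, SE 0.12). Plxna3, which works with neuropilin-2 for Sema3f, was at 4.42, 5.68 and 5.70 FPKM in SMC-TAZ4SA and at 13.1, 14.4 and 13.3 FPKM in SMC-Ctrl (log2 fold change −1.23). The receptors of Sema4d and Sema7a were lower as well. Plxnb1, the receptor of Sema4d, stood at 7.27, 8.46 and 8.52 FPKM in SMC-TAZ4SA and at 35.0, 36.4 and 32.9 FPKM in SMC-Ctrl (log2 fold change −1.98, SE 0.08, adjusted p = 6.91e-08 by limma). Plxnc1, the receptor of Sema7a, stood at 0.0880, 0.114 and 0.0991 FPKM in SMC-TAZ4SA and at 4.06, 3.90 and 3.96 FPKM in SMC-Ctrl (log2 fold change −2.18, 39.6-fold lower by the means). Plxnb2 was the most abundant plexin of both groups, at 59.6 ± 3.19 FPKM in SMC-TAZ4SA and 70.7 ± 4.61 FPKM in SMC-Ctrl (SD, n = 3 each), with a small fall (log2 fold change −0.24, adjusted p = 0.0159 by limma) whose adjusted p was 0.0566 without SMC-Ctrl replicate 2. SMC-TAZ4SA replicate 1 was again the lowest of its group, for all 8 tested plexins.

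Of the 9 tested membrane-bound semaphorins of classes 4 to 7, 7 were lower and 2 higher, against 39.7% and 40.7% of all tested genes. Of these 9 genes, 2 passed the filter only through SMC-TAZ4SA and 3 only through SMC-Ctrl. Both rises were large. Sema7a, a lipid-anchored semaphorin that also binds integrins, had 17.6, 17.8 and 17.5 FPKM in SMC-TAZ4SA and 0.252, 0.288 and 0.309 FPKM in SMC-Ctrl (log2 fold change 3.86, SE 0.05, adjusted p = 3.51e-10 by limma). Sema4f had 5.58, 5.41 and 5.52 FPKM in SMC-TAZ4SA and 0.0804, 0.139 and 0.115 FPKM in SMC-Ctrl (log2 fold change 2.55, SE 0.05, adjusted p = 1.69e-09 by limma). Sema7a thus rose in the same cultures in which its receptor Plxnc1 stood at 0.0880 to 0.114 FPKM. Sema5b, which carries thrombospondin repeats, was near background in SMC-TAZ4SA with 0.0342, 0.0259 and 0.0154 FPKM, against 11.7, 12.2 and 10.9 FPKM in SMC-Ctrl (log2 fold change −3.62, SE 0.06, adjusted p = 6.74e-10 by limma). Sema4d fell together with Plxnb1, to 5.90, 6.91 and 6.45 FPKM in SMC-TAZ4SA, against 16.1, 17.6 and 15.8 FPKM in SMC-Ctrl (log2 fold change −1.24, SE 0.07). Sema4g, a ligand of Plxnb2, was at 1.18, 1.06 and 1.27 FPKM in SMC-TAZ4SA and at 3.59, 4.49 and 3.71 FPKM in SMC-Ctrl (log2 fold change −1.18). The remaining 4 (Sema4b, Sema4c, Sema6c and Sema6d) were lower by less than 2-fold on the log2(FPKM + 1) scale, from −0.93 for Sema6c to −0.52 for Sema4c. By the means, Sema6c was 3.72-fold, Sema6d 2.54-fold, Sema4b 1.72-fold and Sema4c 1.49-fold lower. As deposited, all semaphorins summed to 95.5 ± 1.66 FPKM in SMC-TAZ4SA and 96.8 ± 2.25 FPKM in SMC-Ctrl (SD, n = 3 each). Those of classes 4 to 7 summed to 46.1 ± 0.588 FPKM in SMC-TAZ4SA and 57.2 ± 2.84 FPKM in SMC-Ctrl (SD, n = 3 each). Family totals are not scaled, while the FPKM of all genes summed to 324938 to 361800 in SMC-TAZ4SA and 284422 to 297034 in SMC-Ctrl. Totals that look equal thus depend on the scaling.

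**Figure D2:**
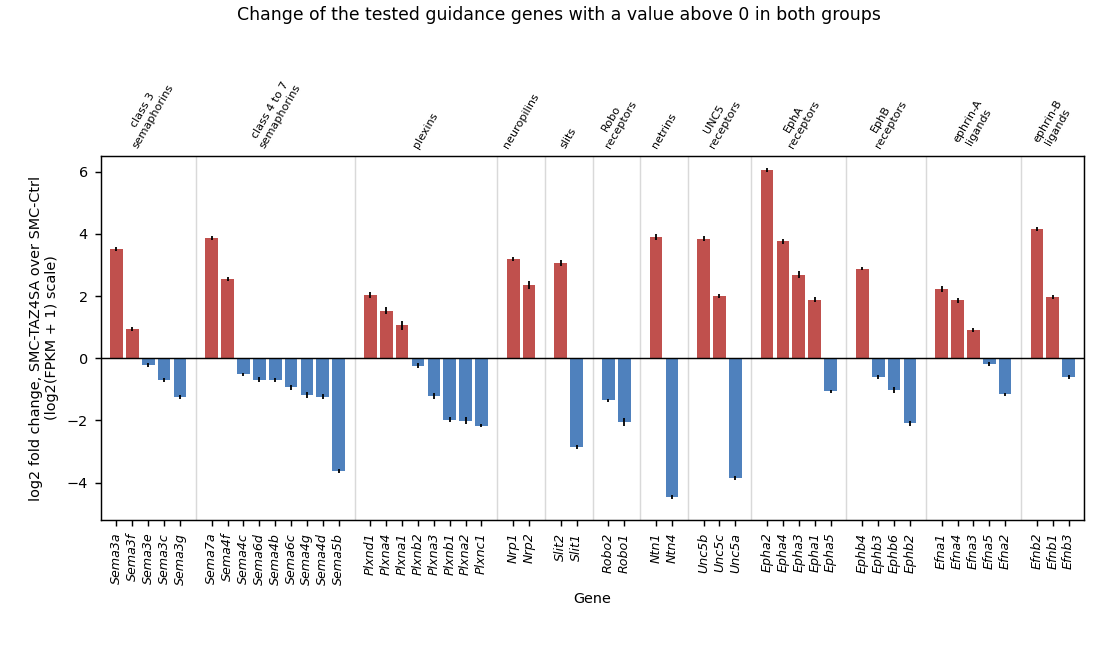
Log2 fold change of the tested guidance genes, SMC-TAZ4SA over SMC-Ctrl on the log2(FPKM + 1) scale, grouped by family and sorted by size. Red bars are rises, blue bars are falls, and black lines are 1 SE from limma with 3 libraries a group. Sema3d, listed at 0 in SMC-Ctrl, is left out. Most families hold long bars in both directions, from 6.06 for Epha2 to −4.46 for Ntn4.

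The main slit was Slit2 in SMC-TAZ4SA and Slit1 in SMC-Ctrl. Slit1, the slit of the developing brain, was at 0.00983, 0.00557 and 0.00662 FPKM in SMC-TAZ4SA and at 6.27, 6.75 and 5.69 FPKM in SMC-Ctrl (log2 fold change −2.84, SE 0.07, adjusted p = 3.22e-09 by limma). Slit2, which is also made in lung and other organs, was at 8.74, 11.0 and 11.2 FPKM in SMC-TAZ4SA and at 0.382, 0.327 and 0.330 FPKM in SMC-Ctrl (log2 fold change 3.06, SE 0.09, adjusted p = 1.53e-08 by limma). Slit2 held 96.5% to 98.0% of the summed slit FPKM in SMC-TAZ4SA, against 4.55% to 5.67% in SMC-Ctrl, and Slit1 held 93.0% to 93.9% in SMC-Ctrl. Among their receptors, both tested Robo genes fell. Robo1 had 5.33, 7.44 and 7.39 FPKM in SMC-TAZ4SA and 32.9, 30.6 and 28.9 FPKM in SMC-Ctrl (log2 fold change −2.05, SE 0.12, adjusted p = 8.55e-07 by limma). Robo2 had 0.131, 0.177 and 0.210 FPKM in SMC-TAZ4SA and 1.90, 1.98 and 2.09 FPKM in SMC-Ctrl (log2 fold change −1.35, SE 0.05). Robo1 was the main Robo gene of both groups, with 97.1% to 97.7% of the summed FPKM of the family in SMC-TAZ4SA and 93.3% to 94.5% in SMC-Ctrl. The total of the Robo genes was 6.90 ± 1.24 FPKM in SMC-TAZ4SA and 32.8 ± 1.87 FPKM in SMC-Ctrl, while that of the slits was 10.6 ± 1.33 FPKM and 6.68 ± 0.540 FPKM in SMC-TAZ4SA and SMC-Ctrl (SD, n = 3 each).

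The main netrin and the main UNC5 receptor also differed between the groups, and Dcc was low in both. Ntn1, the netrin that steers commissural axons, had 35.3, 45.8 and 45.1 FPKM in SMC-TAZ4SA and 1.90, 1.87 and 1.87 FPKM in SMC-Ctrl (log2 fold change 3.89, SE 0.10, adjusted p = 6.30e-09 by limma). With the fall of Ntn4 described above, the netrin total as deposited was 43.0 ± 5.96 FPKM in SMC-TAZ4SA and 42.4 ± 2.84 FPKM in SMC-Ctrl (SD, n = 3 each). Ntn1 made 97.5% to 97.9% of it in SMC-TAZ4SA, and Ntn4 made 94.6% to 95.3% of it in SMC-Ctrl. Unc5b, the UNC5 receptor of blood vessels, was one of the most abundant guidance genes of SMC-TAZ4SA, with 87.8, 102 and 100.2 FPKM there and 5.94, 6.13 and 5.35 FPKM in SMC-Ctrl (log2 fold change 3.84, SE 0.08, adjusted p = 1.95e-09 by limma). Unc5c, a repulsive netrin receptor of axons, was at 3.85, 4.38 and 4.45 FPKM in SMC-TAZ4SA and at 0.290, 0.341 and 0.311 FPKM in SMC-Ctrl (log2 fold change 1.99, SE 0.06). By the means, Unc5b rose 16.7-fold and Unc5c 13.5-fold, while Unc5a fell. Unc5b held 95.6% to 95.7% of the summed FPKM of Dcc and the UNC5 genes in SMC-TAZ4SA, against 25.0% to 28.1% in SMC-Ctrl, where Unc5a held 69.9% to 73.0%. Dcc, the attractive netrin receptor, was under the filter with 0.0121 to 0.0260 FPKM in SMC-TAZ4SA and 0.105 to 0.127 FPKM in SMC-Ctrl. Neo1, the relative of Dcc that also binds netrins, was at 25.4 ± 2.27 FPKM in SMC-TAZ4SA and 22.3 ± 0.769 FPKM in SMC-Ctrl (SD, n = 3 each) and was not called (adjusted p = 0.0605 by limma).

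**Figure D3:**
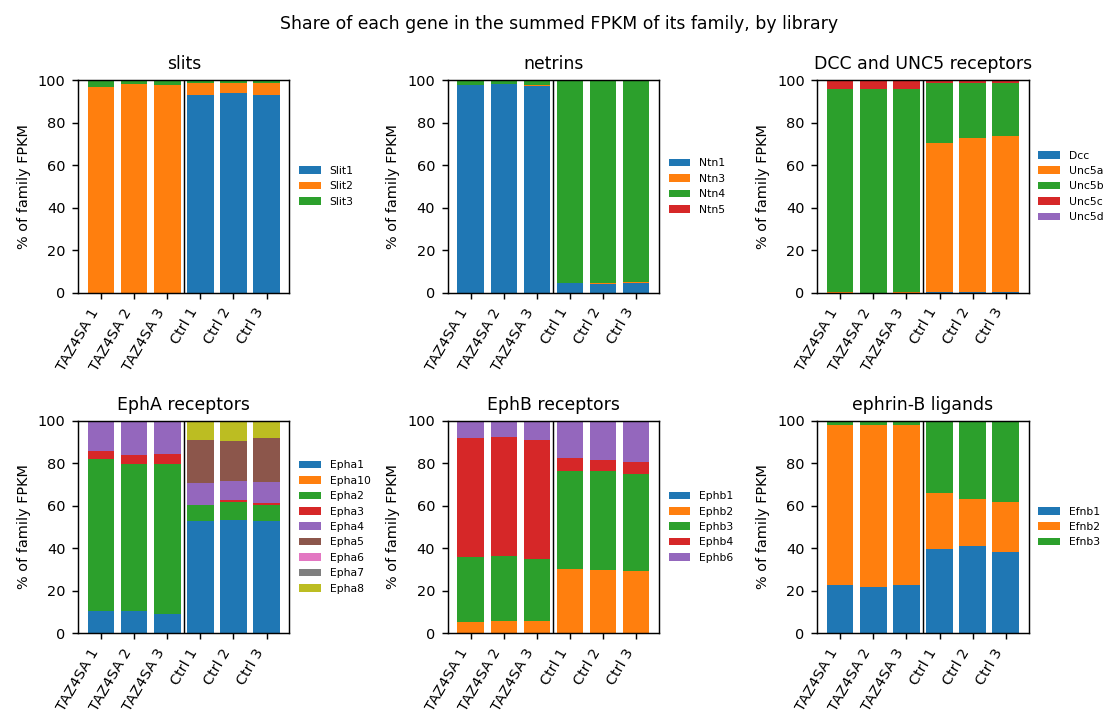
Share of each gene in the summed FPKM of its family, in percent, for each library of 6 families, with the 3 SMC-TAZ4SA libraries left of the vertical line and the 3 SMC-Ctrl libraries right of it. The leading gene differs between the groups in all 6 families drawn, and the 3 libraries of a group look alike.

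The EphA receptors had the largest ratio of family totals, 24.2, with 135 ± 5.24 FPKM in SMC-TAZ4SA and 5.56 ± 0.453 FPKM in SMC-Ctrl (SD, n = 3 each). Of 5 tested, 4 were higher and 1 lower. Epha2 alone made 69.1% to 71.6% of the family in SMC-TAZ4SA and 7.36% to 8.63% in SMC-Ctrl. Epha4, which binds ephrins of both classes, stood at 17.6, 21.3 and 20.4 FPKM in SMC-TAZ4SA and at 0.573, 0.513 and 0.497 FPKM in SMC-Ctrl (log2 fold change 3.76, SE 0.08, adjusted p = 2.22e-09 by limma). Epha3, a receptor of Efna5, stood at 4.51, 6.02 and 6.52 FPKM in SMC-TAZ4SA and at 0.0127, 0.0464 and 0.0328 FPKM in SMC-Ctrl (log2 fold change 2.68, SE 0.11). Epha1, the main EphA gene of SMC-Ctrl, stood at 13.5, 14.5 and 12.7 FPKM in SMC-TAZ4SA and at 3.02, 3.15 and 2.68 FPKM in SMC-Ctrl (log2 fold change 1.88, SE 0.08). Of these 4, the value of Epha1 is uncertain, because its exons overlap those of Zyx on the opposite strand. Zyx, a focal adhesion gene, averaged 172 FPKM in SMC-TAZ4SA and 14.2 FPKM in SMC-Ctrl, and whether the counting used strand is not given in the sources used here. Epha5, an EphA receptor of the brain, was the exception with 0.00647, 0.00733 and 0.0131 FPKM in SMC-TAZ4SA and 1.15, 1.13 and 1.06 FPKM in SMC-Ctrl (log2 fold change −1.07, SE 0.04).

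The ephrin-A ligands rose less than their receptors, with 3 higher and 2 lower of 5. Efna1, the usual ligand of Epha2, had 25.8, 22.3 and 21.2 FPKM in SMC-TAZ4SA and 3.71, 4.60 and 4.25 FPKM in SMC-Ctrl (log2 fold change 2.21, SE 0.09, adjusted p = 1.35e-07 by limma). Efna4 had 7.68, 6.60 and 7.25 FPKM in SMC-TAZ4SA and 1.09, 1.54 and 1.15 FPKM in SMC-Ctrl (log2 fold change 1.86, SE 0.09). Efna2 had 3.34, 3.55 and 3.33 FPKM in SMC-TAZ4SA and 8.78, 9.15 and 8.69 FPKM in SMC-Ctrl (log2 fold change −1.16, SE 0.06). The ligand with the highest level was therefore Efna1 in SMC-TAZ4SA (54.7% to 58.5% of the ephrin-A total) and Efna2 in SMC-Ctrl (42.3% to 43.5%). Efna3 was higher (log2 fold change 0.90), and Efna5 was lower by 0.18 on the log2 scale (adjusted p = 0.0219 by limma), a call lost without SMC-TAZ4SA replicate 2 or 3 or SMC-Ctrl replicate 1 or 3 (0.0528 to 0.0934). The ephrin-A total was 40.7 ± 2.86 FPKM in SMC-TAZ4SA and 20.7 ± 0.771 FPKM in SMC-Ctrl (SD, n = 3 each).

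The EphB total as deposited was close in both groups, at 52.1 ± 0.248 FPKM in SMC-TAZ4SA and 53.3 ± 2.65 FPKM in SMC-Ctrl (SD, n = 3 each), but its makeup differed. Ephb4, the receptor of veins and the partner of Efnb2, was at 29.1, 29.2 and 29.0 FPKM in SMC-TAZ4SA and at 3.32, 2.97 and 2.97 FPKM in SMC-Ctrl (log2 fold change 2.88, SE 0.06, adjusted p = 2.08e-09 by limma). Ephb2, a receptor of axons and intestinal crypts, was at 2.68, 3.07 and 3.15 FPKM in SMC-TAZ4SA and at 15.9, 16.8 and 14.9 FPKM in SMC-Ctrl (log2 fold change −2.09, SE 0.08, adjusted p = 4.54e-08 by limma). Ephb6, whose kinase domain is inactive, was at 4.15, 4.02 and 4.89 FPKM in SMC-TAZ4SA and at 9.22, 10.5 and 9.86 FPKM in SMC-Ctrl (log2 fold change −1.02, SE 0.08). Thus 1 EphB gene rose and the others fell, with Ephb3 lower by 0.61 on the log2 scale. Ephb4 held 55.6% to 56.1% of the EphB total in SMC-TAZ4SA, against 5.28% to 6.29% in SMC-Ctrl, where Ephb3 led with 45.7% to 46.1%.

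Among ephrin-B ligands, Efnb2 and Efnb1 rose and Efnb3 fell. Efnb1, whose human counterpart is mutated in craniofrontonasal syndrome, had 12.9, 13.1 and 13.5 FPKM in SMC-TAZ4SA and 2.62, 2.72 and 2.48 FPKM in SMC-Ctrl (log2 fold change 1.98, SE 0.06, adjusted p = 1.49e-08 by limma). Efnb3, an ephrin of the neural midline, was lower by 0.60 on the log2 scale. The ephrin-B total was 58.7 ± 1.91 FPKM in SMC-TAZ4SA and 6.55 ± 0.0818 FPKM in SMC-Ctrl (SD, n = 3 each), and Efnb2 held 75.1% to 76.1% of it in SMC-TAZ4SA and 21.8% to 26.3% in SMC-Ctrl. Efnb2 and its receptor Ephb4 were thus both at their higher level in the SMC-TAZ4SA libraries.

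**Figure D4:**
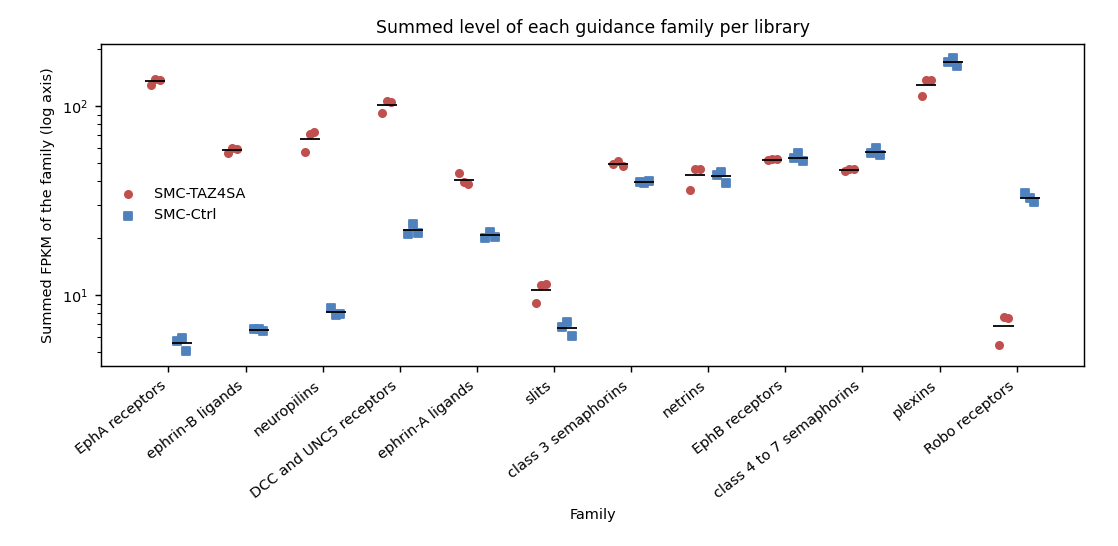
Summed FPKM of 12 guidance families in each library, as deposited and on a log axis (netrin-G, under the filter, is not drawn). SMC-TAZ4SA libraries are red circles left of SMC-Ctrl as blue squares, and the mean is a black line (3 libraries a group). Of those drawn, EphA receptors, ephrin-B ligands and neuropilins are highest above SMC-Ctrl, Robo receptors are below it, and the netrins and EphB receptors of both groups lie close together.

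The 20 guidance genes outside the test were low. All but Epha7 were under 1 FPKM in every library. Epha7 had 0.987, 1.01 and 1.15 FPKM in SMC-TAZ4SA and 0 in each SMC-Ctrl library, so it missed the filter by 1 library. When no filter was applied, 6 of the 20 were higher (Sema3b, Sema5a, Sema6a, Slit3, Ntng2 and Epha7), 4 were lower (Sema6b, Ntn3, Dcc and Epha8) and 9 were not called (Sema4a, Plxnb3, Robo3, Ntng1, Ntn5, Unc5d, Epha6, Epha10 and Ephb1), and Robo4, the Robo receptor of endothelium, was listed at 0 in every library. An exact 0 may be a failed estimate, since Rps12 and Rps28, ribosomal genes that every cell uses, also stood at 0 throughout.

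Further genes of these pathways, acting inside the cell, at its surface or secreted, were taken from a list of 62, called effectors here, of which 55 were tested. In all, 22 were higher, 24 lower and 9 not called, which is near the share of all tested genes (40.7% higher and 39.7% lower), so these counts are no result about the effectors by themselves. They had a median log2 fold change of 0.06, and scaling to the same total gave 19 higher and 26 lower. Of 16 semaphorin effectors, 6 were higher and 10 lower. Rras, a small GTPase that plexins switch off, rose to 39.3 ± 6.64 FPKM in SMC-TAZ4SA, against 1.71 ± 0.110 FPKM in SMC-Ctrl (log2 fold change 3.88), and Rnd1, a GTPase that binds plexins, rose with it (2.10). The collapsin response genes Crmp1, at 1.24 ± 0.132 FPKM in SMC-TAZ4SA and 79.5 ± 5.82 FPKM in SMC-Ctrl (log2 fold change −5.17), and Dpysl5 (−2.79) fell. Of 13 Slit-Robo effectors, 3 were higher and 7 lower. The actin regulators Cap1 (log2 fold change 0.97) and Vasp (0.84) were higher, and Srgap3, a Rac GTPase-activating protein (−1.25), and the kinase Pak1 (−1.11) were lower. Of 8 netrin effectors and partners, 4 were higher and 1 lower. Dock1, an activator of Rac, was at 10.7, 13.2 and 13.3 FPKM in SMC-TAZ4SA and listed at 0 in SMC-Ctrl, the actin-binding gene Ablim1 was higher (log2 fold change 2.66), and Dscaml1, a surface protein of neurons, was lower (−1.94). Of 18 Eph effectors, 9 were higher and 6 lower. Pdzrn3, a ubiquitin ligase with PDZ domains, was at 52.1 ± 0.800 FPKM in SMC-TAZ4SA and 0.419 ± 0.113 FPKM in SMC-Ctrl (log2 fold change 5.23), and Vav3, a guanine nucleotide exchange factor, was at 3.45, 3.18 and 3.30 FPKM in SMC-TAZ4SA and at 0, 0 and 0.0154 FPKM in SMC-Ctrl. Chn1 and Chn2, the chimaerins that turn off Rac, were lower (log2 fold changes −2.47 and −2.27). Means are given ± SD with n = 3 libraries a group.

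Some neighbours in the genome moved together and others did not, by the GENCODE M21 annotation of GRCm38. On chromosome 5, Sema3d (12383385 to 12588948) and Sema3a (13125414 to 13602565) were higher, and the next semaphorins along it, Sema3e (14025276 to 14256689) and Sema3c (17574281 to 17730268), were lower. The ephrin-A genes of chromosome 3, Efna1 (89271733 to 89281142), Efna3 (89313899 to 89322965) and Efna4 (89333390 to 89338028), were all higher, while Efna2 on chromosome 10 and Efna5 on chromosome 17 were lower. Robo1 (72308306 to 73046095) and Robo2 (73891839 to 74411825), side by side on chromosome 16, were both lower.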

How the data were processed

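Total RNA of the SMC line was extracted with TRIzol and sequenced as read pairs on a NovaSeq instrument. STAR 2.6 and mm10 are listed in the processing notes of the submitters. FPKM values, 1 column per library, were deposited by the authors. How these were computed, with which annotation and whether by strand, was not given in the sources used here. The study used DESeq2, which was not run because FPKM are not counts.

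Groups were taken from the sample titles. Symbols on several lines (254 symbols, 740 of 23847 lines) were left out. Genes at 1 FPKM or more in at least 3 of 6 libraries (12141) were compared on log2(FPKM + 1) with limma 3.58.1 in R 4.3.3 (group as the only term, mean-variance trend, 2-sided, Benjamini-Hochberg over all tested genes, threshold 0.05), a script checked on simulated data. SE is limma's moderated standard error. Relative depth is the most frequent ratio between libraries of values under 0.3 FPKM. Values per library were printed for tested genes changed at least 2-fold on that scale, and for the effector list the 2 largest changes per family and direction were named. Family totals and shares are sums of FPKM as deposited, not scaled between libraries and described without a test. Symbols were matched to GENCODE M21 for positions and to RefSeq (GRCm38.p6) for promoters. Alternatives were the pseudocount, the filter, the scaling, repeated symbols summed, no trend, a replicate block and each library left out. The genes and lists were chosen with earlier results of these data known. One of the motifs searched and one of the markers are not reported here.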

Additional observations from a re-analysis of the deposited data

How the results depend on the processing

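The 51 tested guidance genes were refitted under each alternative, and 893 of 904 fits of single genes kept direction and side of the threshold. The other 11 lost the call, none changed direction, and they concern 3 genes with small changes. The adjusted p of Sema3e by limma was 0.0507 without SMC-TAZ4SA replicate 3 and 0.0910, 0.0503 and 0.0556 without SMC-Ctrl replicates 1, 2 and 3. That of Efna5 was 0.0651 and 0.0653 without SMC-TAZ4SA replicates 2 and 3, and 0.0934 and 0.0528 without SMC-Ctrl replicates 1 and 3. That of Plxnb2 was 0.0566 without SMC-Ctrl replicate 2. Scaling to the same total moved their log2 fold changes to −0.41 for Sema3e, −0.46 for Plxnb2 and −0.36 for Efna5, all still called. The 39 genes changed at least 2-fold had adjusted p-values of at most 0.00136 in every fit that tested them. With the replicate number as a block, 24 guidance genes were higher and 25 lower, and Sema3e (0.0633) and Efna5 (0.0626) lost the call. Same-numbered libraries did not deviate together (correlations −0.25, −0.06 and −0.31), so the numbers are not read as pairs. Between 25 and 27 genes were lower with a library left out, and 24 were higher each time. Without a filter 30 were higher and 31 lower, and at 5 FPKM 19 and 19. Effector counts ran from 19 to 27 higher and 18 to 28 lower. Low values limit the precision of genes under 1 FPKM, above all in SMC-TAZ4SA replicate 3, the shallowest library.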
